A study of Mus musculus with 6 samples.

Results

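The 9 epididymal genes followed here through the 6 arrays of the study are the lipocalin genes Lcn5, Lcn8 and Lcn9, the protease inhibitor genes Spink8 and Eppin, Adam7, Gpx5, the beta-defensin gene Defb42 and Cuzd1. They are 9 of 19938 genes that carried 1 symbol on the array, and each was read by 1 probeset. The genes were selected on their log2 values on these same 6 arrays, being epididymal genes that stood out on 1 or a few of them, so their levels and differences are given as descriptions, without a test. The arrays hold RNA from obese male C57BL/6J mice, 3 arrays from Hmox1f/f PdgfraCre mice (1 to 3) and 3 from Hmox1f/f mice (4 to 6). Hmox1, the gene of the heme-degrading enzyme heme oxygenase-1, is floxed in both genotypes, with loxP sites around an exon, and Hmox1f/f PdgfraCre mice also carry a Cre transgene driven by the promoter of Pdgfra, a receptor of adipose precursors (APs). Hmox1f/f mice have no Cre, so an effect of Cre itself cannot be told apart from that of losing Hmox1. For each array RNA of 2 mice was pooled, and the mice had been fed a high-fat diet (HFD) for 8 weeks from the age of 6 weeks. The labels call the material both bead-purified APs and visceral white adipose tissue (viWAT), and no batch, day or litter is given. P-values and errors measure the spread between these pools.

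The visceral fat collected in such work is the perigonadal pad, which in male mice is attached to the epididymis. The epididymis is the coiled duct in which sperm leaving the testis mature, and its epithelium is divided into an initial segment, caput, corpus and cauda that each secrete their own set of proteins under the control of androgens and of factors from the testis. Lipocalins, beta-defensins, protease inhibitors and antioxidant enzymes are among the main families of these proteins.

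Median intensity was between 106 and 115 on the 6 arrays, and 10849 to 11108 genes an array exceeded a log2 intensity of 7. Adipoq, an adipokine of mature adipocytes, lay between 12.74 and 13.10 and Pdgfra, an AP receptor, between 10.05 and 10.36, so that a defining adipocyte gene was high on every array of material also described as APs. Hmox1 had log2 intensities of 11.25, 11.36 and 10.74 in Hmox1f/f PdgfraCre, against 11.90, 11.63 and 12.32 in Hmox1f/f, and the groups did not overlap. In such RNA fewer cells of a type and less RNA per cell cannot be told apart.

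The 9 genes were not high in a genotype but on particular arrays. A value is called raised where it was at least 1 log2 unit above the median of that gene over the 6 arrays. On Hmox1f/f PdgfraCre 1, 7 of 9 genes were raised, against 1.29% of all genes. On Hmox1f/f PdgfraCre 3, 4 of 9 were raised, against 0.241% of all genes. None of the 9 was raised on Hmox1f/f PdgfraCre 2, where the share of all genes was 0%. On Hmox1f/f 6, 4 of 9 were raised, against 2.93%, on Hmox1f/f 4 only Defb42, against 0.0602%, and on Hmox1f/f 5 none, against 0.0251%. As the genes were picked for standing out, nothing is read from the gap to these shares. The highest of the 6 values was on Hmox1f/f PdgfraCre 1 for 6 genes (16.8% of all genes) and on Hmox1f/f 6 for Lcn8, Lcn9 and Gpx5 (20.7% of all genes). None of the 9 was highest on Hmox1f/f PdgfraCre 2 or 3, where 17.3% and 21.2% of all genes were, or on Hmox1f/f 4 or 5, where 18.5% and 5.52% were. The lowest value was on Hmox1f/f PdgfraCre 2 for 3 genes, on Hmox1f/f PdgfraCre 3 for 2, on Hmox1f/f 5 for 1 and on Hmox1f/f 6 for 3. Only 3 of the 9 genes were raised on a single array, and 6 were raised on at least 2.

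**Figure D1:**
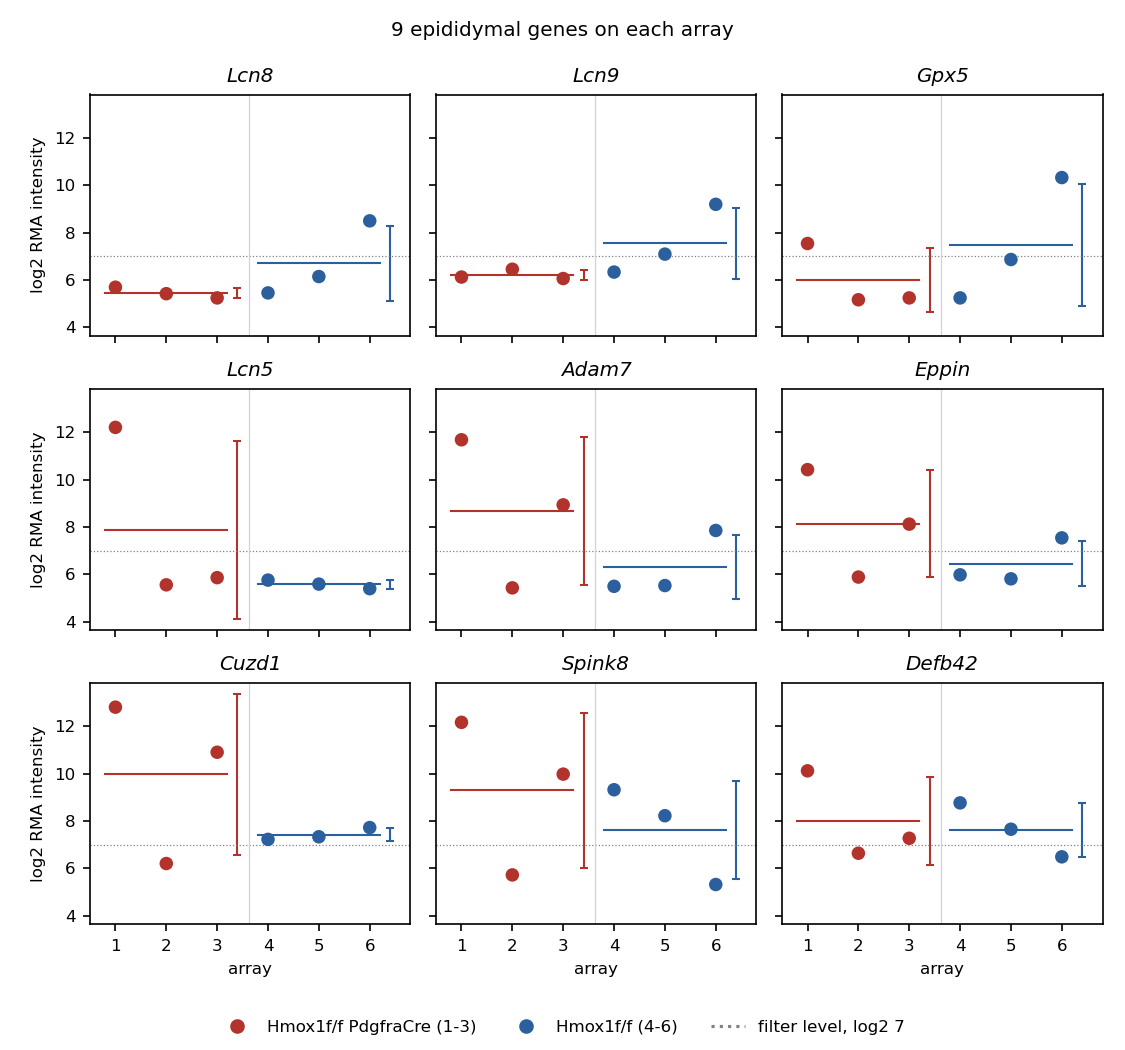
Log2 intensity of the 9 epididymal genes on each array (y axis) against array number (x axis). Points are arrays, red for Hmox1f/f PdgfraCre and blue for Hmox1f/f, horizontal lines are group means, bars are SD (n = 3 arrays) and the dotted line is the filter level of 7. Lcn8, Lcn9 and Gpx5 are highest on Hmox1f/f 6, the other 6 genes on Hmox1f/f PdgfraCre 1.

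Lcn8 and Lcn9 are lipocalin genes of the proximal duct, Lcn8 being a gene of the initial segment, and lipocalins are small secreted carriers of hydrophobic ligands. Lcn8 had log2 intensities of 5.70, 5.43 and 5.25 on the Hmox1f/f PdgfraCre arrays and 5.46, 6.15 and 8.50 on the Hmox1f/f arrays. Lcn9 had 6.13, 6.46 and 6.07 in Hmox1f/f PdgfraCre, against 6.34, 7.10 and 9.20 in Hmox1f/f. Both genes were highest on Hmox1f/f 6 and next highest on Hmox1f/f 5, while Hmox1f/f 4 lay within the range of the Hmox1f/f PdgfraCre arrays, so the groups overlapped. The top value stood 7.59-fold above the 6-array median for Lcn8 and 6.98-fold for Lcn9. Lcn8 averaged 5.46 ± 0.23 in Hmox1f/f PdgfraCre, against 6.70 ± 1.60 in Hmox1f/f, and Lcn9 averaged 6.22 ± 0.21 in Hmox1f/f PdgfraCre, against 7.55 ± 1.48 in Hmox1f/f (SD, n = 3 each). The difference between genotypes was -1.25 ± 0.74 for Lcn8 and -1.33 ± 0.69 for Lcn9 (SE), and without Hmox1f/f 6 it was -0.35 for Lcn8 and -0.50 for Lcn9. Among the 9 genes this pair followed each other most closely, with a root mean square difference of 0.20 log2 units between their profiles after each was centred on its own mean.

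Gpx5, which encodes a secreted glutathione peroxidase of the caput that protects sperm from oxidation, shared the high value on Hmox1f/f 6. It had log2 intensities of 7.55, 5.17 and 5.25 in Hmox1f/f PdgfraCre, against 5.25, 6.87 and 10.33 in Hmox1f/f. The value on Hmox1f/f 6 stood 19.3-fold above the median, and Hmox1f/f PdgfraCre 1 and Hmox1f/f 5 came next, so the groups overlapped. The difference was -1.50 ± 1.34 (SE), -0.07 without Hmox1f/f 6 and -2.61 without Hmox1f/f 4. Its profile was 0.90 from that of Lcn8. Gpx6, the neighbouring gene with no protein-coding gene in between in the RefSeq order, stayed between 4.75 and 5.55 on all arrays.

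Hmox1f/f 6 was also the array on which genes of male germ cells were highest. Of 20 genes of spermatids and late spermatocytes 20 were highest there (20.7% of all genes) and 18 were raised there (2.93% of all genes). The list was chosen with earlier results of these data known. The mean log2 intensity of this list was 6.63, 5.99 and 7.12 in Hmox1f/f PdgfraCre, against 6.37, 7.32 and 9.44 in Hmox1f/f. Ldhc, a lactate dehydrogenase of germ cells, had 6.36, 6.38 and 7.38 in Hmox1f/f PdgfraCre, against 6.71, 7.69 and 10.60 in Hmox1f/f. Hmox1f/f 5 was the second array for Ldhc, as for Lcn8 and Lcn9. The list mean of genes of Leydig and Sertoli cells moved less. It lay between 6.02 and 6.27 in Hmox1f/f PdgfraCre and between 6.04 and 6.62 in Hmox1f/f, the highest on Hmox1f/f 6. Of 11 such genes measured, 5 were highest on Hmox1f/f 6 (20.7% of all genes) and 3 were raised there (2.93% of all genes). On Hmox1f/f PdgfraCre 1, 1 was raised (1.29% of all genes). The part of germ cell RNA in the values of Lcn8, Lcn9 and Gpx5 was not tested.

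Lcn5, the gene of a lipocalin of the caput that binds retinoic acid, was high on 1 array alone. It had log2 intensities of 12.21, 5.55 and 5.86 in Hmox1f/f PdgfraCre, against 5.75, 5.58 and 5.39 in Hmox1f/f. Hmox1f/f PdgfraCre 1 stood 92.8-fold above the median, and the other 5 arrays lay between 5.39 and 5.86, so that the other two Hmox1f/f PdgfraCre arrays overlapped the Hmox1f/f arrays. The mean was 7.87 ± 3.76 in Hmox1f/f PdgfraCre, against 5.58 ± 0.18 in Hmox1f/f (SD, n = 3 each). The difference of 2.30 ± 1.72 (SE) became 0.13 without Hmox1f/f PdgfraCre 1.

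Lcn5 and Lcn8 lie side by side on chromosome 2, with no protein-coding gene between them in the RefSeq order, yet each was high on a different array. Lcn9 lies on the same chromosome, 8 protein-coding genes from Lcn5. Their profiles differed accordingly, by 2.90 log2 units between Lcn5 and Lcn8. The promoters of the 3 lipocalin genes are shown because these related genes lie near each other and parted into these patterns, as windows of 300 bases around the start site from the RefSeq promoter table (build GRCm38.p6). They are Lcn5 (chr2:25657702-25658001, plus strand), Lcn8 (chr2:25652868-25653167, plus strand) and Lcn9 (chr2:25822903-25823202, plus strand). Capitals mark TATAAA in Lcn5 and AGAACA in Lcn9.

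Lcn5: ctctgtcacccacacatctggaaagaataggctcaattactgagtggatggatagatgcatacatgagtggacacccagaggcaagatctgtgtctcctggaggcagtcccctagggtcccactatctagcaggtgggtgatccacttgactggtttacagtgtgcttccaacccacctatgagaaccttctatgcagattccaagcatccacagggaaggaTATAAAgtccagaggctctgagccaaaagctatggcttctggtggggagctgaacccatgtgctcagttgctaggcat
Lcn8: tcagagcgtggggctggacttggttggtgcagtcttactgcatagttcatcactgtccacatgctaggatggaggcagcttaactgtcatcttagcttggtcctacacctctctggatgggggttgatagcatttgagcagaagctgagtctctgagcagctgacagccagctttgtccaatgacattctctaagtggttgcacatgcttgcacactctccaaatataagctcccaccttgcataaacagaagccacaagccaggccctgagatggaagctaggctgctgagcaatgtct
Lcn9: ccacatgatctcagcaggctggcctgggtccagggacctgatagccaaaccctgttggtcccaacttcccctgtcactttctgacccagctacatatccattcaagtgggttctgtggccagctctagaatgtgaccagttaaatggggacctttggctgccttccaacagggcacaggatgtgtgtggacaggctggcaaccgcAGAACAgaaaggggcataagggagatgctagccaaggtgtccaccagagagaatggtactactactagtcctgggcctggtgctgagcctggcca

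Of the 9 genes 7 had a promoter in that table, all but Spink8 and Adam7. The letters TATAAA of a TATA box, which read TTTATA on the other strand, were found in 1 of these 7, that of Lcn5 at position -28 from the start site, and in 13.6% of 32851 promoters of the same length. The core letters of androgen receptor sites, TGTTCT, which read AGAACA on the other strand, were found in 2 of 7, at -45 in Lcn9 and at 17 in Eppin, and in 19.0% of all promoters. The forkhead core TGTTTAC, which reads GTAAACA on the other strand, was found in none of the 7 and in 3.65% of all promoters. No promoter of the 7 held more than 1 match, so no matches overlapped. A match is a description of the letters only.

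Among the genes with an Lcn symbol 11 were measured, each of them on chromosome 2, and besides Lcn5, Lcn8 and Lcn9 only Lcn12 of these was raised on any array. Lcn12 had 9.79, 6.64 and 7.13 in Hmox1f/f PdgfraCre, against 6.48, 6.41 and 6.41 in Hmox1f/f, highest on Hmox1f/f PdgfraCre 1 like Lcn5. Lcn6 and Lcn10, known epididymal lipocalin genes, stayed between 5.25 and 5.78, and Lcn3, Lcn4, Lcn11 and Lcn15 between 4.39 and 5.81. Lcn2, an acute-phase lipocalin made by many cells, was between 10.55 and 11.97 on all arrays and lowest on Hmox1f/f PdgfraCre 2.

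Adam7, Eppin and Cuzd1 shared an order of arrays, with Hmox1f/f PdgfraCre 1 first, followed by Hmox1f/f PdgfraCre 3 and then Hmox1f/f 6. Adam7 encodes a membrane protein of the caput without protease activity that is transferred to sperm. Its log2 intensities were 11.68, 5.43 and 8.93 in Hmox1f/f PdgfraCre, against 5.49, 5.52 and 7.85 in Hmox1f/f. The remaining 3 arrays lay between 5.43 and 5.52, and the top array stood 31.9-fold above the median. Eppin, a sperm-surface protease inhibitor with a Kunitz and a whey acidic protein (WAP) domain that is also made by Sertoli cells, had 10.42, 5.88 and 8.12 in Hmox1f/f PdgfraCre, against 5.98, 5.81 and 7.54 in Hmox1f/f. The top array stood 12.7-fold above its median. Cuzd1, which encodes a membrane protein with CUB and zona pellucida-like domains known also from pancreas and uterus, had 12.82, 6.21 and 10.91 in Hmox1f/f PdgfraCre, against 7.23, 7.34 and 7.73 in Hmox1f/f. For all 3 genes Hmox1f/f PdgfraCre 2 lay below or among the Hmox1f/f arrays, so the groups overlapped.

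The genotype differences of these genes were positive, with large errors. They were 2.39 ± 1.56 for Adam7, 1.70 ± 1.13 for Eppin and 2.55 ± 1.56 for Cuzd1 (SE). Adam7 averaged 8.68 ± 3.14 in Hmox1f/f PdgfraCre, against 6.29 ± 1.35 in Hmox1f/f (SD, n = 3 each, as for the other means here). Eppin averaged 8.14 ± 2.27 in Hmox1f/f PdgfraCre, against 6.44 ± 0.95 in Hmox1f/f. Cuzd1, whose top array stood 38.9-fold above its median, averaged 9.98 ± 3.40 in Hmox1f/f PdgfraCre, against 7.43 ± 0.26 in Hmox1f/f. Without Hmox1f/f PdgfraCre 1 the difference was 0.89 for Adam7, 0.56 for Eppin and 1.13 for Cuzd1. Without Hmox1f/f PdgfraCre 2 it was 4.02 for Adam7, 2.83 for Eppin and 4.43 for Cuzd1. Their profiles were 0.66 (Adam7 and Eppin), 0.73 (Adam7 and Cuzd1) and 0.96 (Eppin and Cuzd1) log2 units apart. Digestive enzyme genes of the pancreas, another known source of Cuzd1, had list means between 5.55 and 5.81 on all arrays, and none of 12 measured was raised on any array. Genes of uterus and oviduct had list means between 5.89 and 6.21 in these male mice, with none of 5 raised. The part of RNA from other tissues in the values of Cuzd1 was not tested.

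Eppin lies in a cluster of WAP and Kunitz inhibitor genes on chromosome 2, and most of the cluster was raised with it. Of 18 Wfdc and Spint genes measured there, Eppin included, 14 were highest on Hmox1f/f PdgfraCre 1 (16.8% of all genes). Among the 14, Wfdc6b and Wfdc3 lay only 0.37 and 0.14 above their medians. On that array 12 of the 18 were raised (1.29% of all genes), and 6 on Hmox1f/f PdgfraCre 3 (0.241% of all genes). Spint4 had 11.70, 5.00 and 6.32 in Hmox1f/f PdgfraCre, against 5.64, 5.09 and 4.91 in Hmox1f/f. Wfdc10 had 12.23, 7.10 and 9.82 in Hmox1f/f PdgfraCre, against 7.40, 7.36 and 7.93 in Hmox1f/f, the same order of the first 3 arrays as Eppin. Wfdc2, Wfdc3, Wfdc5 and Wfdc12 of the same cluster were flat, between 4.95 and 6.15, and Wfdc15a was highest on Hmox1f/f 6 at 7.48. Adam7 has other ADAM genes next to it on chromosome 14, of which Adamdec1 stayed between 4.95 and 5.21 and Adam28 was raised on Hmox1f/f 6 only, at 7.08.

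**Figure D2:**
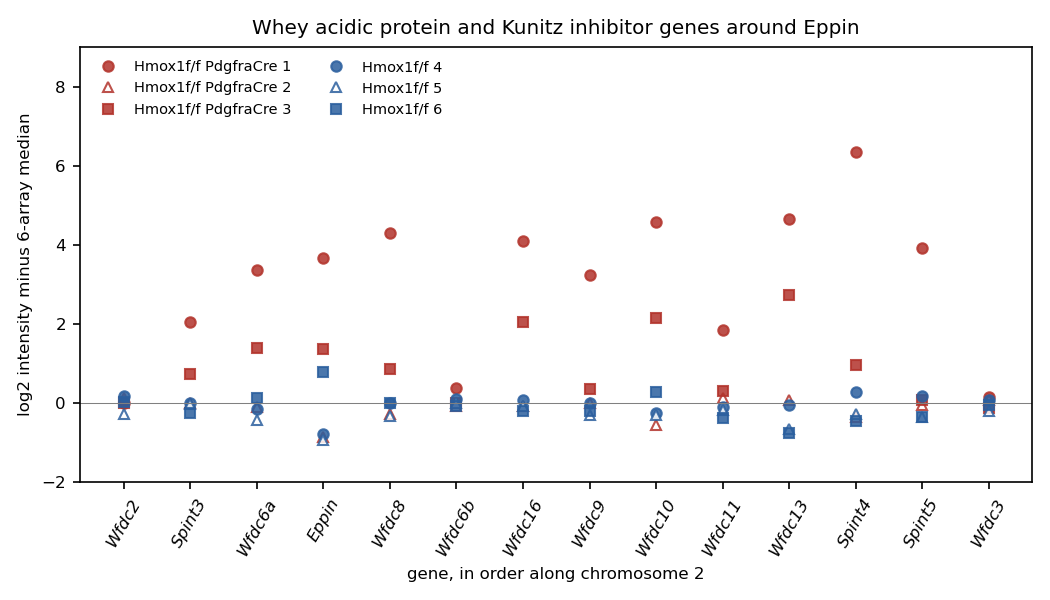
Log2 intensity minus the 6-array median (y axis) of Eppin and the WAP and Kunitz inhibitor genes nearest to it, in their order along chromosome 2 (x axis, spaced by rank). Each symbol is 1 array. Hmox1f/f PdgfraCre 1 is the top symbol for most genes and Hmox1f/f PdgfraCre 3 lies below it, while Wfdc2, Wfdc6b and Wfdc3 stay near 0.

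Spink8 and Defb42 were both lowest on Hmox1f/f 6 and next lowest on Hmox1f/f PdgfraCre 2, though Defb42 was also below its median of 7.47 on Hmox1f/f PdgfraCre 3. Their profiles were 1.41 log2 units apart, about as far as Defb42 from Eppin (1.41) and Spink8 from Cuzd1 (1.42). Spink8, a Kazal-type serine protease inhibitor gene of the caput, had log2 intensities of 12.17, 5.73 and 9.99 in Hmox1f/f PdgfraCre, against 9.33, 8.23 and 5.32 in Hmox1f/f. Defb42, a gene of an antimicrobial beta-defensin, had 10.13, 6.64 and 7.28 in Hmox1f/f PdgfraCre, against 8.77, 7.66 and 6.49 in Hmox1f/f. In both genes Hmox1f/f PdgfraCre 1 was first, Hmox1f/f 6 was last and the groups overlapped. Hmox1f/f 4 was second for Defb42, and for Spink8 it came after Hmox1f/f PdgfraCre 3. The range over arrays was 6.85 log2 units for Spink8, the widest of the 9.

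The genotype difference of Spink8 was 1.67 ± 1.77 (SE), with means of 9.30 ± 3.28 in Hmox1f/f PdgfraCre, against 7.63 ± 2.07 in Hmox1f/f (SD, n = 3 each). That of Defb42 was 0.37 ± 1.00 (SE), with means of 8.02 ± 1.85 in Hmox1f/f PdgfraCre, against 7.64 ± 1.14 in Hmox1f/f. Both turned negative when Hmox1f/f PdgfraCre 1 and Hmox1f/f 6 were left out, Spink8 at -0.92 and Defb42 at -1.25, and Defb42 also without Hmox1f/f PdgfraCre 1 alone (-0.68) or Hmox1f/f 6 alone (-0.20). The profiles of Spink8 and Gpx5 were the farthest apart of all pairs among the 9, at 3.41 log2 units. Defb42 belongs to a defensin cluster on chromosome 14 whose genes did not move as 1 group. Defb30, its neighbour, had 10.60, 6.23 and 6.21 in Hmox1f/f PdgfraCre, against 6.66, 6.17 and 5.95 in Hmox1f/f, high on the first array alone. Defb48 had 5.04, 5.00 and 4.86 in Hmox1f/f PdgfraCre, against 5.17, 5.73 and 8.53 in Hmox1f/f, with the first and second arrays of Lcn8. Defb43 had 8.51, 6.02 and 7.20 in Hmox1f/f PdgfraCre, against 7.13, 6.70 and 5.70 in Hmox1f/f, which is the order of arrays of Spink8 (these neighbours were looked at after their values were seen).

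Over the 9 genes the genotype difference was positive for 6 and negative for Lcn8, Lcn9 and Gpx5, and for 6 of 9 it was smaller than the SD within groups. In none of the 9 did the Hmox1f/f PdgfraCre arrays lie all above or all below the Hmox1f/f arrays, which 17.3% of all genes did, and 27% of the genes that passed the filter on dim genes. The median difference was 1.67, against 0.00 over all genes. With Hmox1f/f PdgfraCre 1 and Hmox1f/f 6 both left out it was -0.46, against -0.02 over all genes, and without Hmox1f/f PdgfraCre 1 alone it was 0.13. The SD within groups ran from 1.06 to 2.74 with a median of 2.07, against a median of 0.14 over all genes. An SD within groups at or above that of Lcn9, the lowest of the 9, was found in 0.883% of genes (176). As the 9 genes were picked for standing out on 1 or a few arrays, a large SD came with the choice and nothing is read from it. Of the 9 genes 5 passed the filter on dim genes (log2 above 7 on at least 3 arrays), and Lcn5, Lcn8, Lcn9 and Gpx5 did not, since they exceeded it on only 1 or 2 arrays.

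**Figure D3:**
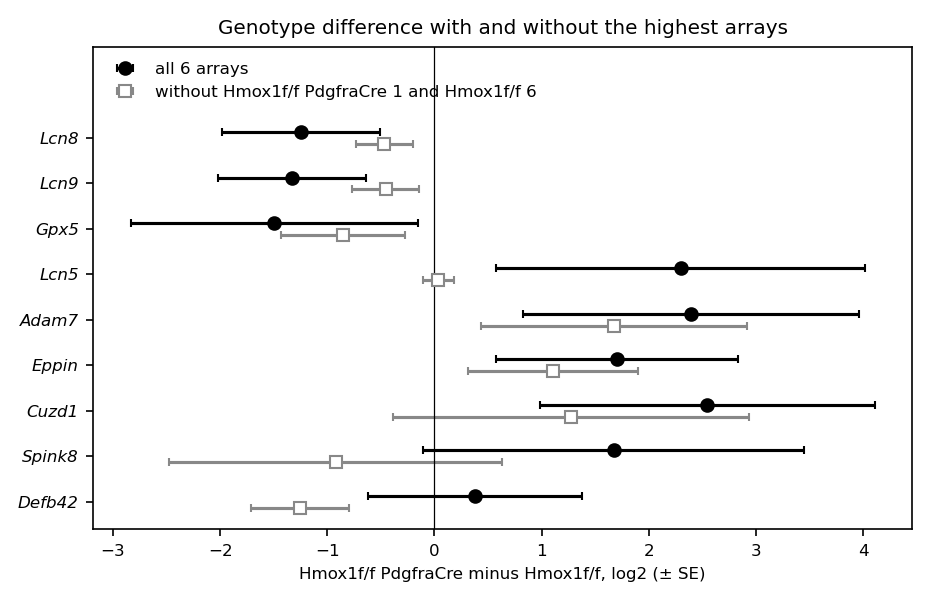
Difference between genotypes, Hmox1f/f PdgfraCre minus Hmox1f/f, on the log2 scale (x axis) for the 9 genes (y axis). Black circles use all 6 arrays, open squares leave out Hmox1f/f PdgfraCre 1 and Hmox1f/f 6, and bars are SE. Lcn5 moves to 0.04 and Spink8 and Defb42 cross 0 to -0.92 and -1.25.

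The same arrays stood out in other genes of the epididymis, taken from a list of 86 of which 78 were measured. The list was chosen with earlier results of these data known and includes genes of the Eppin and Defb42 clusters named above. Of the 78, 42 (53.8%) were raised on Hmox1f/f PdgfraCre 1, against 1.29% of all genes. On Hmox1f/f PdgfraCre 3, 18 were raised, against 0.241% of all genes, and on Hmox1f/f 6, 13 were, against 2.93%. Only Spag11b was raised on Hmox1f/f 5 and none on Hmox1f/f PdgfraCre 2 or Hmox1f/f 4. All 18 genes raised on Hmox1f/f PdgfraCre 3 were also raised on Hmox1f/f PdgfraCre 1 and higher there, by a median of 2.22 log2 units. Rnase9, a gene of a secreted ribonuclease-like protein, had 11.05, 4.09 and 6.73 in Hmox1f/f PdgfraCre, against 4.17, 3.91 and 3.91 in Hmox1f/f. Defb23, a beta-defensin gene, had 12.81, 5.98 and 8.55 in Hmox1f/f PdgfraCre, against 6.38, 5.64 and 5.32 in Hmox1f/f. These are 2 of the 12 genes of the list with the widest gap between top array and median, which were all highest on Hmox1f/f PdgfraCre 1. The others were Defb38, Spink11, Spint4, Defb26, Pate2, Defb39, Serpina16, Defb22, Wfdc13 and Wfdc10, with gaps from 4.56 for Wfdc10 to 6.73 for Defb38.

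**Figure D4:**
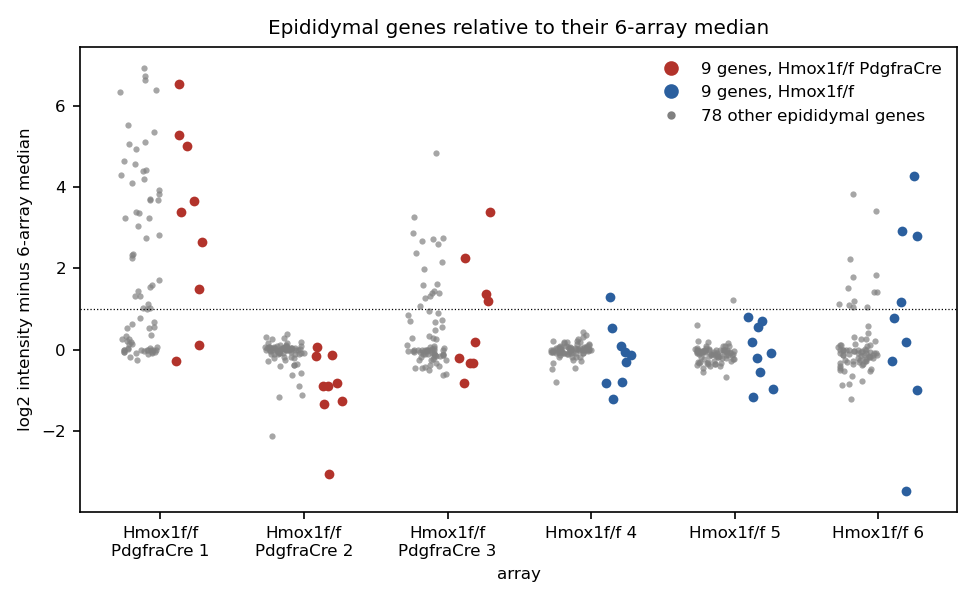
Log2 intensity minus the 6-array median of each gene (y axis) on each array (x axis). Large points are the 9 genes, red on Hmox1f/f PdgfraCre and blue on Hmox1f/f arrays, small grey points are the 78 other epididymal genes, and the dotted line is at 1. At or above the line lie 42 grey points on Hmox1f/f PdgfraCre 1, 18 on Hmox1f/f PdgfraCre 3 and 13 on Hmox1f/f 6.

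The genes raised on Hmox1f/f 6 were mostly others. Of those 13 genes 11 were not raised on Hmox1f/f PdgfraCre 1. Defb41 and the acrosin inhibitor gene Spink2 were raised on both arrays. Spag11b, an epididymal defensin-like gene, had 5.17, 5.25 and 5.04 in Hmox1f/f PdgfraCre, against 4.75, 6.43 and 9.04 in Hmox1f/f, with Hmox1f/f 5 second as for Lcn8 and Lcn9. Hmox1f/f 5 was the second array for 7 of the 13. The group also held Cst11, Cst12, Ovch2, Adam28, Ly6g5c, Wfdc15a, Defb19, Defb20, Defb25 and Defb48, at most 8.53 on Hmox1f/f 6. Defb19, Defb20 and Defb25 were raised here, while Defb22, Defb23 and Defb26 of the same chromosome 2 were raised on Hmox1f/f PdgfraCre 1.

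Between genotypes the 78 genes had a median difference of 0.39, positive for 57, and of 0.04 without Hmox1f/f PdgfraCre 1 and Hmox1f/f 6. Their groups did not overlap for 12 of 78 (15.4%), against the 17.3% of all genes. Only 5 of the 78 passed the filter on dim genes (Adgrg2, Spink2, Wfdc10, Wfdc15b and Defb43), and 33 never exceeded a log2 intensity of 7. By limma, with Benjamini-Hochberg adjustment over 11024 genes, none of the 5 passed (smallest adjusted p = 0.405) and none had an unadjusted p under 0.05. Over all genes tested limma called 0 (0%) after adjustment, also with trend and robust moderation, and 1740 (15.8%) had an unadjusted p under 0.05.

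Most epithelial genes shared the peak on Hmox1f/f PdgfraCre 1 with the 6 genes highest there, but 0 of 16 were raised on Hmox1f/f PdgfraCre 3 (0.241% of all genes). The list of 16 epithelial genes had means of 7.85, 6.70 and 6.96 in Hmox1f/f PdgfraCre, against 7.08, 6.82 and 6.73 in Hmox1f/f. Of the 16, 13 were highest on Hmox1f/f PdgfraCre 1 (16.8% of all genes) and 8 were raised there (1.29% of all genes). Epcam, an adhesion molecule of epithelia, had 8.39, 6.07 and 7.13 in Hmox1f/f PdgfraCre, against 6.98, 6.78 and 6.86 in Hmox1f/f. Pax8, a transcription factor of the epididymal epithelium, had 9.53, 6.91 and 8.17 in Hmox1f/f PdgfraCre, against 8.10, 7.84 and 7.61 in Hmox1f/f. Cldn3 of the same list had 8.60, 7.13 and 6.99 in Hmox1f/f PdgfraCre, against 7.52, 7.04 and 6.89 in Hmox1f/f, with Hmox1f/f 4 second. Epcam and Pax8 were lowest on Hmox1f/f PdgfraCre 2, as were Adam7, Cuzd1 and Gpx5. Genes of seminal vesicle and vas deferens, the neighbouring ducts and glands, stayed between list means of 4.32 and 4.54 with none of 10 raised. Clear cells of the epididymis had a list mean of 7.19 on Hmox1f/f PdgfraCre 1 and of 6.76 to 6.87 on the others. Lists of mesothelium (7.73 to 8.02), adipocytes (12.40 to 12.74) and APs (10.07 to 10.34) gave close means on all arrays. Of the genes of these lists and the clear cell list only Krt18 of the mesothelial list was raised on any array. Cd24a of the AP list had 9.13, 7.48 and 8.94 in Hmox1f/f PdgfraCre, against 8.57, 8.52 and 8.14 in Hmox1f/f, lowest on Hmox1f/f PdgfraCre 2. Macrophage genes had list means of 10.65, 10.92 and 10.43 in Hmox1f/f PdgfraCre, against 11.20, 11.10 and 11.24 in Hmox1f/f. Each Hmox1f/f mean lay above each Hmox1f/f PdgfraCre mean, unlike the pattern of Lcn8, Lcn9 and Gpx5. Of these 10 genes 7 were highest on Hmox1f/f 6, against 20.7% of all genes, and none was raised on any array. By limma 6 of the 10 had an unadjusted p under 0.05, against 15.8% of all genes tested, and none passed adjustment. The part of macrophage and epithelial RNA in the values of the 9 genes was not tested.

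The genes whose profile came nearest to the mean of the 9 were sought over all genes by root mean square difference on the 6 arrays. They were Nxf3 (0.30 log2 units), a nuclear RNA export factor, Prom1 (0.33), Gstm7 (0.36), Ptgds (0.41), a lipocalin-type prostaglandin synthase, Cyp17a1 (0.43), Cpn1 (0.43), the epididymal sperm-binding Crisp4 (0.46), Slc35f2 (0.48), Lipg (0.49) and Slc38a4 (0.50). Nxf3 had 7.95, 4.70 and 6.13 in Hmox1f/f PdgfraCre, against 5.00, 5.04 and 6.54 in Hmox1f/f. Crisp4 had 8.25, 4.32 and 5.49 in Hmox1f/f PdgfraCre, against 4.32, 4.46 and 4.70 in Hmox1f/f. All 10 were highest on Hmox1f/f PdgfraCre 1 and only Crisp4 was on the epididymal list. The mean profile covers the different orders described above. Nearest to single genes of the 9, chosen after values were seen, were Pate13 for Lcn5 (0.11), Teddm2 and Gsg1 for Lcn8 (both 0.15), Lelp1 for Gpx5 (0.63) and Serpina1f for Spink8 (0.74). For Gpx5 the next were Oaz3 (0.68), Odf1 (0.77) and Spag11b of the epididymal list (0.82).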

How the data were processed

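The authors deposited 1 intensity per probeset and array, a linear whole number from 8 to 20701. The submitters' processing notes name robust multi-array average (RMA) and Affymetrix Expression Console 1.1. RMA corrects background, quantile-normalizes and summarizes probes. RMA compresses differences of dim probesets and does not show a shift shared by most genes. Log2 was taken of each deposited value. Of 35556 probesets, 21789 had 1 symbol, 1621 several and 12146 none. Genes with more than 1 probeset (999) were read from the one with the highest mean, which left 19938 genes, of which 19856 were found in the RefSeq gene table by Entrez number.

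Genotype differences and SE come from limma 3.58.1 in R 4.3.3, fitted on all genes and 6 arrays with a term for genotype. Benjamini-Hochberg adjustment covered the 11024 genes with log2 above 7 on at least 3 arrays. The model was tested on simulated data. Settings tried besides were no filter on dim genes, a filter at 6, an offset of 50 before log2, further quantile normalization, centring of arrays, the mean of all probesets, trend and robust moderation, and leaving out each array. Plots were made in Python 3.11.15 (matplotlib 3.10.9). The 9 genes and the gene lists were chosen with earlier results of these data known. Named besides the 9 were Adipoq, Pdgfra, Epcam, Hmox1, the 12 other epididymal genes with the widest gap between top array and median, the 10 genes nearest to the mean profile and up to 3 genes of each other list. Genes beyond these, such as neighbours on the chromosome, were chosen after their values were seen.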

Additional observations from a re-analysis of the deposited data

How the results depend on the processing

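Several genotype differences of the 9 genes came close to 0 when 1 array was left out. Leaving out Hmox1f/f PdgfraCre 1 moved Lcn5 to 0.13 and Spink8 to 0.23, leaving out Hmox1f/f 6 moved Gpx5 to -0.07, and Defb42 was -1.25 with both left out (a setting chosen after the data were seen). The median difference of the 9 genes was then -0.46, the one median below 0. Under offset, normalization, centring, mean of probesets and moderation it lay between 1.39 and 1.69. The filters dropped some of the 9, and the median was 1.67 over the 7 left at log2 6 and 1.70 over the 5 left at log2 7. With all 9 genes and 1 array left out it lay between 0.13 (Hmox1f/f PdgfraCre 1 left out) and 2.83 (Hmox1f/f PdgfraCre 2 left out). With 1 array left out, the genes highest on Hmox1f/f PdgfraCre 3 numbered 0 to 5, those on Hmox1f/f 4 numbered 0 to 1 and those on Hmox1f/f 5 numbered 0 to 2, where leaving out Hmox1f/f PdgfraCre 1 gave the upper value on the first pair of arrays and leaving out Hmox1f/f 6 gave it on the last. Genes raised on Hmox1f/f PdgfraCre 3 numbered 2 to 4 (2 without Hmox1f/f PdgfraCre 2 or Hmox1f/f 5), those on Hmox1f/f 4 numbered 1 to 2 and those on Hmox1f/f 5 numbered 0 to 1. The median of the 78 other epididymal genes lay between 0.08 and 0.56 under settings that kept all of them and at least 5 arrays, was 0.73 over the 5 left by the filter at log2 7, and was 0.04 with Hmox1f/f PdgfraCre 1 and Hmox1f/f 6 left out. limma called 0 genes after adjustment under all settings run. No paired analysis was possible because the groups share no replicate numbers. With 3 pools a genotype, the number of arrays limits the precision.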

Other observations

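Genes of the liver were also high on Hmox1f/f PdgfraCre 1. In a list of 24 hepatocyte genes written after values were seen, 22 were measured. Of these, 20 were highest on Hmox1f/f PdgfraCre 1 (16.8% of all genes). On that array 19 were raised (at least 1 log2 unit above the 6-array median), against 1.29% of all genes, with none raised on another array. Nothing is read from the gap to these shares, given how the list was written. The list mean was 9.36, 6.61 and 6.47 in Hmox1f/f PdgfraCre, against 6.59, 6.47 and 6.47 in Hmox1f/f. Alb, the albumin gene, had 12.66, 6.55 and 6.77 in Hmox1f/f PdgfraCre, against 6.49, 6.61 and 6.70 in Hmox1f/f. Apoa2, an apolipoprotein gene, had 11.08, 7.07 and 6.78 in Hmox1f/f PdgfraCre, against 6.86, 6.70 and 6.78 in Hmox1f/f. Tat, the tyrosine aminotransferase gene, had 10.06, 6.23 and 5.98 in Hmox1f/f PdgfraCre, against 6.15, 6.13 and 6.02 in Hmox1f/f. Hmox1f/f PdgfraCre 3, on which Adam7, Eppin, Cuzd1 and Spink8 were raised, held none of this rise. The profile of Alb was 0.26 log2 units from that of Lcn5 by root mean square difference.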
